A study of Mus musculus with 8 samples.

Results

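RNA-Seq values of 10 genes for angiogenic growth factors, their receptors and an inhibitor were followed in tumor-associated macrophages (TAMs) with and without miR-21. The genes were chosen by name and function, and all 10 were found among the 53247 genes of the deposited table. They were the VEGF ligands Vegfa, Vegfb and Vegfc, the VEGF receptors Flt1, Nrp1 and Nrp2, the PDGF ligands Pdgfa and Pdgfb, the EGF-type ligand Hbegf, and Thbs1, which codes for thrombospondin-1. TAMs came from s.c. tumors of LLC, a Lewis lung carcinoma line that grows in syngeneic C57BL/6 mice. The 2 groups were 4 samples from WT mice and 4 samples from miR-21-/- mice, labelled miR-21 null, all of strain C57/BL6 and 10 weeks old by the labels. Tumors were taken 14 days after LLC cells were implanted in either genotype, and cells positive for CD45, CD11b, MHCII and F4/80 were sorted from the digested tissue. The miR-21-/- mice carry a germline deletion of Mir21a, so their other host cells lacked miR-21 as well, while the implanted LLC line was the same in both groups. The title of miR-21-/- sample 1 joins a pair of numbers without saying whether mice were pooled, and it was counted as 1 sample.

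Blood vessels grow toward a tumor when endothelial cells receive growth factors from the tumor and its stroma, and macrophages are a well-known source of them. VEGF-A signals mainly through VEGFR2 (Kdr) on endothelial cells, VEGF-B binds VEGFR1 (Flt1), and VEGF-C acts on lymphatic endothelium through VEGFR3 (Flt4). Neuropilins are coreceptors that bind VEGFs and class 3 semaphorins, PDGFs recruit pericytes and fibroblasts, and thrombospondin-1 is a matrix protein that restrains vessel growth through CD36 and CD47.

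The sequence deleted in the miR-21-/- mice is shown first, because a microRNA represses transcripts that pair with its seed, bases 2 to 8 from the 5′ end (in capitals). Mature miR-21a-5p lies on the minus strand at chr11:86584120-86584141 (RefSeq, GRCm38.p6).
mmu-miR-21a-5p: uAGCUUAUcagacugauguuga
For every gene the longest 3′ UTR annotated in GENCODE vM21 was searched for the complement of this seed. An 8-base match, the seed complement followed by A, was in 2.14% of 21173 annotated 3′ UTRs and, of the 10 genes, in Vegfc and Flt1. Both sites are printed 5′ to 3′ with the 8 matched bases in capitals and 8 bases of flank on each side, since they are the only members with a full match.
Vegfc: attgtattATAAGCTAtgaagttc
Flt1: gactaatgATAAGCTAtgagaacc
The Vegfc site covered bases 380 to 387 of a 3′ UTR of 1028 bases, and that of Flt1 bases 3233 to 3240 of 3971 bases. The 6-base core of the match, found in 24.2% of all 3′ UTRs, was also present in Nrp1 and Pdgfa, at 2 positions each, and in Nrp2, at 1 position. It was not found in the annotated 3′ UTRs of Vegfa, Vegfb, Pdgfb, Thbs1 and Hbegf.

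Promoter windows from 250 bases before to 50 bases after the start were given in the RefSeq table (GRCm38.p6) for 7 of the 10 genes, all but Thbs1, Pdgfb and Hbegf. The 250 bases before the start are printed for Vegfa and Vegfb, the VEGF genes that moved in opposite directions. Capitals mark GGGCGG, a motif bound by Sp factors, on either strand.
Vegfa, minus strand, chr17:46032378-46032627: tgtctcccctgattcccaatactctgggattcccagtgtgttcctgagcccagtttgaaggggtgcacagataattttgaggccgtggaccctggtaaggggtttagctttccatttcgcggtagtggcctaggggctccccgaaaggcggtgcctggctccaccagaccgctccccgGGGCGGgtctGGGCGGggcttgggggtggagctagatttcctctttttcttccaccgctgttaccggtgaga
Vegfb, minus strand, chr19:6987652-6987901: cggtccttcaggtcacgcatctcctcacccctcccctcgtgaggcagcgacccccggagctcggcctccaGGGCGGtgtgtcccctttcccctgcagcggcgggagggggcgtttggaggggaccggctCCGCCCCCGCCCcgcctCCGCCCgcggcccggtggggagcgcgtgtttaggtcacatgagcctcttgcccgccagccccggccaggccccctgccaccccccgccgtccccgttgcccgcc
Vegfa held 2 copies of GGGCGG here and Vegfb 4, against at least 1 copy in 35.7% of all 32851 windows. The cores of the hypoxia response element, ACGTG or GCGTG on either strand, were in 19.6% and 32.4% of all windows. Neither was in this Vegfa window, whereas Vegfb held GCGTG at 2 positions and no ACGTG. Bases further upstream than 250 were not searched, so elements there would not be seen. A second Vegfa start in the table, with its window at chr17:46025114-46025413, held 1 copy of each of the hypoxia cores. That whole window lies inside the Vegfa gene (chr17:46016993-46032369), so its letters are also transcribed from the first start. These matches describe the letters of the windows, and binding was not measured.

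The authors deposited CPM values, counts per 1e+06 reads, each raised by 0.0001. Steps between the low values put the depth of the samples at 20.2 to 33.4 times 1e+06 reads, which makes a single read worth 0.0300 to 0.0495 CPM. Mir21a itself was listed at 0.0001 CPM in all 8 samples, and so gave no check of the genotype labels. Markers of the sort gate were present throughout, with mean values in WT and miR-21-/- TAMs of 2052 and 1956 CPM for Itgam, which codes for CD11b, and of 564 and 433 CPM for Adgre1, which codes for F4/80. Adgre1 was lower in every miR-21-/- sample (log2 fold change -0.38, limma adjusted p = 0.00140), under the fold limit. With 4 samples a group and no statement that each came from 1 mouse, p-values measure the spread between these samples. In bulk RNA of this kind, fewer cells of a type and less RNA per cell cannot be told apart.

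In miR-21-/- TAMs, Vegfa and Thbs1 rose and Vegfb fell. The miR-21-/- mean CPM was 2.02 times the WT mean for Vegfa, 2.14 times for Thbs1 and 0.494 times for Vegfb. Fold changes are miR-21-/- over WT of log2(CPM + 1), fitted with limma. The fit took in the 13850 genes whose mean reached 1 per 1e+06 of their column's total. To pass the threshold, a gene needed a change of more than 1.5-fold and a p-value of 0.005 or less after Benjamini-Hochberg adjustment across all tested genes. Of the 10 genes 9 were tested, and Vegfc was under the filter on low values. Those that passed upward were 2, Vegfa and Thbs1, where 2.89% of all tested genes passed upward. Vegfb was the 1 gene that passed downward, where 4.23% of all tested genes did. At an adjusted p at or under 0.05 without a fold limit, 5 of the 9 passed in the limma fit, against 36.0% of all genes. In 5 of the 9 the values of the groups did not overlap, against 35.1% of all genes. After rescaling by the median of ratios it was also 5, against 31.1% of all genes, with Nrp1 in place of Pdgfa. The median fold change of the 9 was 0.27 on the log2 scale, beside -0.10 over all tested genes. Rescaling by the median of ratios moved that overall median to -0.003 and the calls over all genes from 400 higher and 586 lower to 520 higher and 350 lower, and quantile normalization gave 491 higher and 337 lower. The direction of each of the 9 fold changes was the same under both scalings.

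**Figure D1:**
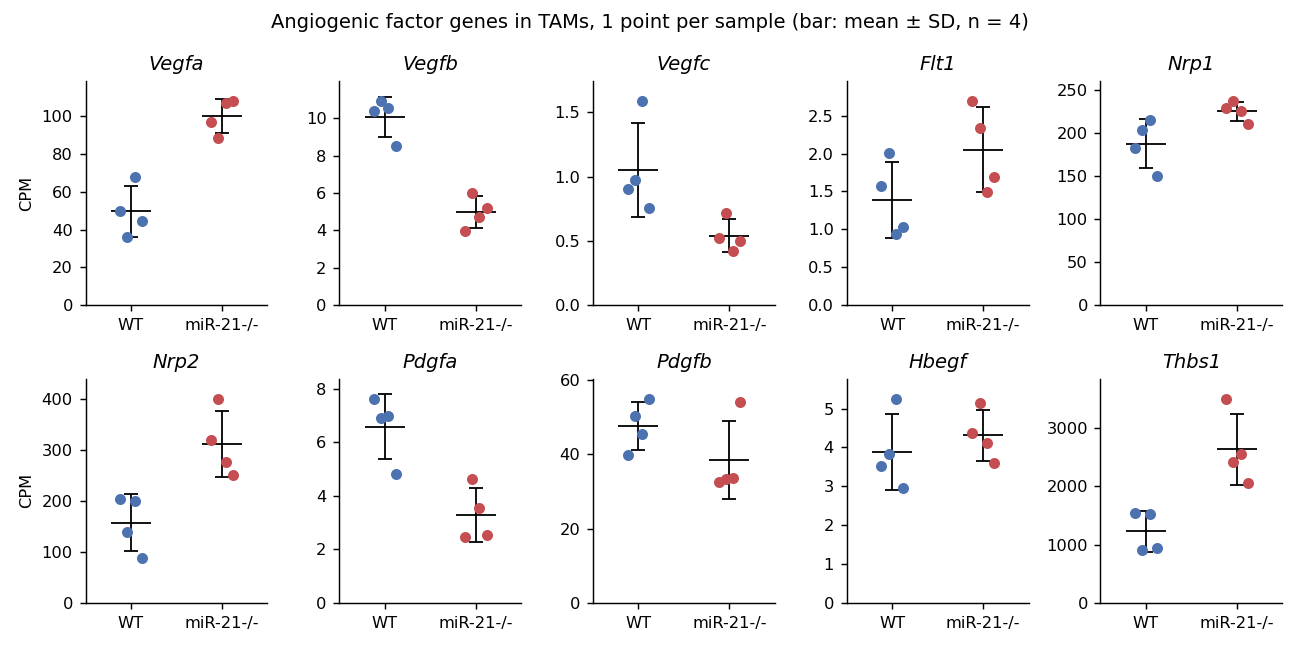
CPM of the 10 genes, 1 point per sample, with mean and SD of 4 WT and 4 miR-21-/- samples on linear axes from 0. On this deposited scale the groups do not overlap for Vegfa, Vegfb, Vegfc, Nrp2, Pdgfa and Thbs1, and they overlap for Flt1, Nrp1, Pdgfb and Hbegf.

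Vegfa, the main ligand for endothelial sprouting, lies on the minus strand at chr17:46016993-46032369 (GRCm38). It was measured at 49.9, 36.0, 67.8 and 44.5 CPM in WT samples 1 to 4 and at 97.0, 88.6, 107 and 108 CPM in miR-21-/- samples 1 to 4. Every miR-21-/- sample was above every WT sample, and the miR-21-/- samples lay closer together than the WT samples. The mean went from 49.6 ± 13.5 to 100 ± 8.99 CPM (SD, n = 4), a log2 fold change of 1.03 (SE 0.16, 95% interval 0.68 to 1.38, limma adjusted p = 0.00102).

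Vegfb, a ligand of Flt1 known for roles in muscle, fat and vessel survival more than in sprouting, lies on the minus strand at chr19:6982473-6987651. Its values were 10.4, 10.9, 10.5 and 8.52 CPM in WT and 3.99, 5.996, 4.72 and 5.23 CPM in miR-21-/- TAMs. No miR-21-/- sample reached the lowest WT sample. The mean fell from 10.1 ± 1.07 to 4.98 ± 0.843 CPM (SD, n = 4), a log2 fold change of -0.90 (SE 0.12, 95% interval -1.16 to -0.63, limma adjusted p = 0.000476).

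Vegfc, the lymphatic ligand and 1 of the 2 genes with a full seed match, was low in both groups (chr8:54077606-54187096, plus strand). It was measured at 0.903, 0.970, 1.58 and 0.757 CPM in WT and at 0.523, 0.720, 0.422 and 0.496 CPM in miR-21-/- TAMs, which is 11 to 32 reads a sample. On the deposited scale the groups did not overlap, with miR-21-/- below WT. Means were 1.05 ± 0.364 and 0.540 ± 0.127 CPM (SD, n = 4), a difference of -0.40 in log2(CPM + 1), and the exact permutation test, two-sided, gave p = 0.0286, the smallest that 4 against 4 samples allow. This separation depended on the scaling: after rescaling by the median of ratios, the lowest WT sample was at 0.738 and the highest miR-21-/- sample at 0.739, the difference was -0.35 and the exact permutation test gave p = 0.0571. When all genes above the table minimum were fitted, the limma adjusted p of Vegfc was 0.0847.

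**Figure D2:**
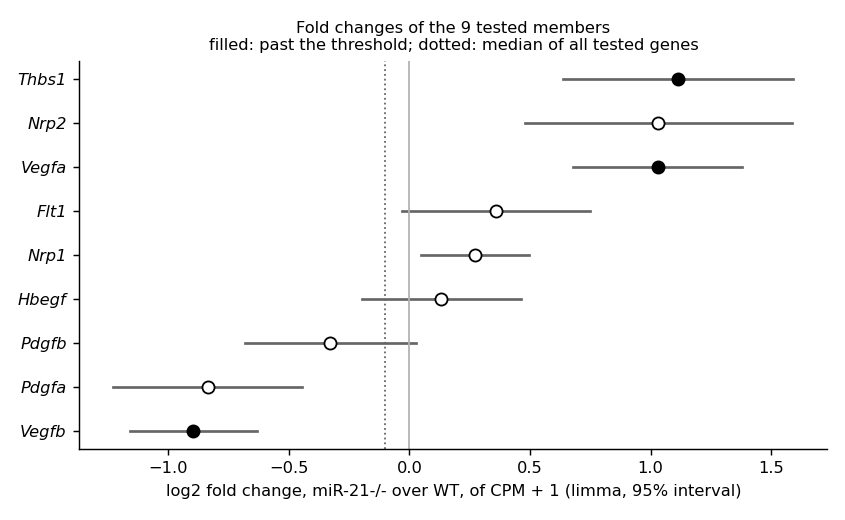
Log2 fold change of CPM + 1, miR-21-/- over WT TAMs, with the 95% interval from limma for the 9 tested genes. Filled points passed the threshold (Thbs1, Vegfa and Vegfb), and the dotted line is the median over all tested genes, -0.10.

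Of the receptors, the neuropilins were far more abundant than Flt1, and Nrp2 showed the larger difference. Nrp2, the coreceptor for VEGF-C and several semaphorins (chr1:62703285-62818695, plus strand), was at 204, 139, 201 and 88.1 CPM in WT and at 319, 401, 277 and 251 CPM in miR-21-/- TAMs. All miR-21-/- samples were above all WT samples, and WT sample 4 was the lowest. Means were 158 ± 55.5 and 312 ± 65.4 CPM (SD, n = 4), a log2 fold change of 1.03 (SE 0.25, 95% interval 0.48 to 1.59, limma adjusted p = 0.0100), which missed the threshold on p. Without WT sample 4 the value was 0.78, with a limma adjusted p of 0.00804. The gene model Gm37121 lies within Nrp2 on the same strand and was at 0.546 and 1.70 CPM, so reads of the pair cannot be fully separated.

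Nrp1, the coreceptor for VEGF-A and semaphorin 3A (chr8:128358604-128503363, plus strand), was at 183, 203, 215 and 151 CPM in WT and 229, 237, 225 and 210.3 CPM in miR-21-/- TAMs. The groups overlapped on the deposited scale, since WT sample 3 was above miR-21-/- sample 4. Means were 188 ± 28.2 and 225 ± 11.1 CPM (SD, n = 4), a log2 fold change of 0.27 (SE 0.10, 95% interval 0.05 to 0.49, limma adjusted p = 0.0568). It was 0.17 without WT sample 4, and 0.38 with a limma adjusted p of 0.0117 after rescaling by the median of ratios, still under the fold limit.

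Flt1, which codes for VEGFR1, a receptor also found on monocytes (chr5:147561604-147726011, minus strand), holds the other full seed match. It was at 1.57, 2.01, 0.940 and 1.04 CPM in WT and at 2.69, 2.34, 1.498 and 1.69 CPM in miR-21-/- TAMs. The lower miR-21-/- samples lay within the WT range. Means were 1.39 ± 0.498 and 2.05 ± 0.556 CPM (SD, n = 4), a log2 fold change of 0.36 (SE 0.18, 95% interval -0.03 to 0.75, limma adjusted p = 0.136).

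The PDGF ligands both had lower means in miR-21-/- TAMs, and neither passed the threshold. Pdgfa, the ligand of PDGFRα (chr5:138976014-138997370, minus strand), was at 7.62, 6.89, 6.98 and 4.82 CPM in WT and at 2.46, 4.62, 3.53 and 2.53 CPM in miR-21-/- TAMs. The groups were separated by a small gap, between WT sample 4 and miR-21-/- sample 2, which closed after rescaling by the median of ratios, at 4.70 and 4.74. Means were 6.58 ± 1.22 and 3.29 ± 1.01 CPM (SD, n = 4), a log2 fold change of -0.84 (SE 0.18, 95% interval -1.23 to -0.44, limma adjusted p = 0.00522), just over the limit on p. Without WT sample 4 it passed (-0.96, limma adjusted p = 0.00257), as it did without miR-21-/- sample 2 (-0.98, limma adjusted p = 0.00287). The antisense gene 6330403L08Rik overlaps Pdgfa and was at 3.39 ± 1.22 and 1.56 ± 0.461 CPM (SD, n = 4), with a log2 fold change of -0.76 (limma adjusted p = 0.0185). Whether the counting used strand is not given in the sources used here, so reads of the pair cannot be told apart.

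Pdgfb, which recruits pericytes to new vessels (chr15:79995900-80014808, minus strand), was at 39.9, 50.3, 45.4 and 54.8 CPM in WT and at 32.4, 33.4, 33.6 and 54.1 CPM in miR-21-/- TAMs. In the miR-21-/- group, sample 4 alone lay within the WT range, and the others were below it. Means were 47.6 ± 6.41 and 38.4 ± 10.5 CPM (SD, n = 4), a log2 fold change of -0.33 (SE 0.16, 95% interval -0.68 to 0.03, limma adjusted p = 0.132). Without miR-21-/- sample 4 the value was -0.50 with a limma adjusted p of 0.00583, still short of the threshold.

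Thbs1, the angiogenesis inhibitor (chr2:118111876-118127133, plus strand), was the most abundant of the genes. It was measured at 1540.4, 914, 1531 and 933 CPM in WT and at 3493, 2417, 2558 and 2055 CPM in miR-21-/- TAMs. The WT samples formed a higher and a lower pair, and all miR-21-/- samples were above both. The mean rose from 1230 ± 354 to 2631 ± 613 CPM (SD, n = 4), a log2 fold change of 1.12 (SE 0.21, 95% interval 0.64 to 1.59, limma adjusted p = 0.00328). This call depended on single samples: it was lost on p in 5 of the 8 fits that left out 1 sample (WT 2 or 4, miR-21-/- 1, 2 or 3), with limma adjusted p up to 0.0107 and log2 fold changes from 0.97 to 1.15. The antisense gene model Gm29233 overlaps Thbs1 and was at 3.61 and 7.99 CPM, little beside Thbs1 itself.

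Platelets also hold much thrombospondin-1, so their markers were read beside it. Of 8 platelet and megakaryocyte markers, 7 were under 1 CPM in all samples, Gp1bb was at the table minimum in all, and the sum was 22.3 to 105 CPM in WT and 49.0 to 85.8 CPM in miR-21-/- TAMs. That sum was nearly all Ppbp, a platelet chemokine, at 56.1 ± 35.2 and 62.0 ± 16.6 CPM (SD, n = 4), and the ranges of the groups overlapped.

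Hbegf, a membrane-anchored ligand of the EGF receptor (chr18:36504929-36515805, minus strand), was at 3.51, 3.84, 5.24 and 2.95 CPM in WT and at 4.37, 5.16, 4.11 and 3.61 CPM in miR-21-/- TAMs. Every miR-21-/- sample lay within the WT range. Means were 3.89 ± 0.978 and 4.31 ± 0.647 CPM (SD, n = 4), a log2 fold change of 0.13 (SE 0.15, 95% interval -0.20 to 0.46, limma adjusted p = 0.513). Leaving out WT sample 3 or 4 gave 0.26 or 0.04.

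Levels of different genes were compared as CPM per kb of annotated exon. In WT TAMs Thbs1 stood highest at 202 ± 58.2 CPM per kb (SD, n = 4), above 98.5% of all tested genes, and Flt1 lowest at 0.103 ± 0.0369, above 0.382% of them. Between these the order was Nrp1 at 19.2 ± 2.88, Nrp2 at 13.3 ± 4.69, Vegfa at 11.6 ± 3.14 and Pdgfb at 11.4 ± 1.54 CPM per kb. Each of these neighbours overlapped with the next in its range over samples, so the order of Nrp2, Vegfa and Pdgfb is not fixed by these data. Nrp1 was above Nrp2 within every WT sample, and its lowest WT value, 15.4 CPM per kb, was above the highest of Pdgfb, 13.2. Vegfb at 6.29 ± 0.665, Pdgfa at 2.11 ± 0.390, Hbegf at 0.804 ± 0.202 and Vegfc at 0.430 ± 0.149 CPM per kb followed, and of these only Hbegf and Vegfc overlapped. In WT TAMs the inhibitor Thbs1 was thus the leading transcript of the set, and the level of VEGFR1 was below nearly all tested genes.

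In miR-21-/- TAMs Thbs1 was again highest, at 433 ± 101 CPM per kb. Nrp2 at 26.3 ± 5.52, Vegfa at 23.3 ± 2.10 and Nrp1 at 23.0 ± 1.14 CPM per kb followed, and each overlapped with the next. Pdgfb at 9.23 ± 2.52 and Vegfb at 3.11 ± 0.525 CPM per kb were clear of their neighbours. Vegfa thus stood above 86.7% of tested genes, against 73.0% in WT, and Vegfb above 40.6%, against 57.4%. Pdgfa at 1.05 ± 0.325 overlapped with Hbegf at 0.891 ± 0.134, and Vegfc at 0.221 ± 0.0518 overlapped with Flt1 at 0.152 ± 0.0411 CPM per kb. With the length of the longest transcript instead, 44 of the 45 pairs of genes kept this order in WT and 42 in miR-21-/- TAMs.

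**Figure D3:**
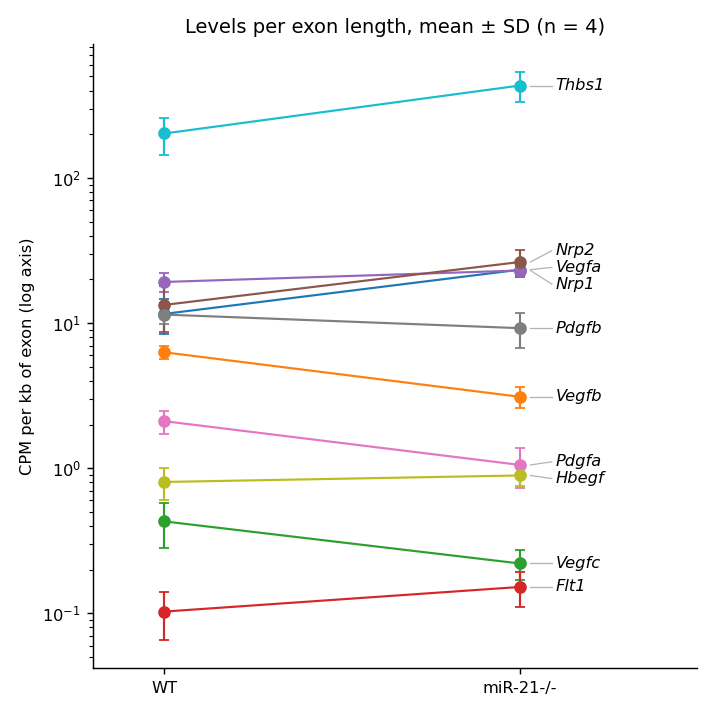
Mean level of each gene in CPM per kb of exon on a log axis, with SD over 4 samples, in WT and miR-21-/- TAMs. Thbs1 is highest in both groups (202 and 433 CPM per kb), and Vegfa, Pdgfb, Nrp1 and Nrp2 lie close together in WT but Pdgfb lies apart in miR-21-/- TAMs.

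Ratios within each sample, which do not depend on a scaling factor of the sample, describe the balance between the genes. Vegfa over Vegfb, as CPM per kb, was 1.80, 1.24, 2.41 and 1.96 in WT and 9.09, 5.54, 8.46 and 7.72 in miR-21-/- TAMs. The groups did not overlap, with means of 1.85 ± 0.485 and 7.70 ± 1.55 (SD, n = 4). Vegfa over Thbs1, the ligand beside the inhibitor, was 0.0581 ± 0.00942 in WT and 0.0562 ± 0.0146 in miR-21-/- TAMs (SD, n = 4), and the ranges overlapped. Nrp2 over Nrp1 was 0.921, 0.564, 0.774 and 0.484 in WT and 1.15, 1.40, 1.02 and 0.988 in miR-21-/- TAMs, without overlap. Pdgfb over Pdgfa overlapped, at 5.70 ± 1.99 and 9.61 ± 4.64 (SD, n = 4), with the highest value, 16.0, in miR-21-/- sample 4. These ratios combine differences already given gene by gene and were not tested.

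**Figure D4:**
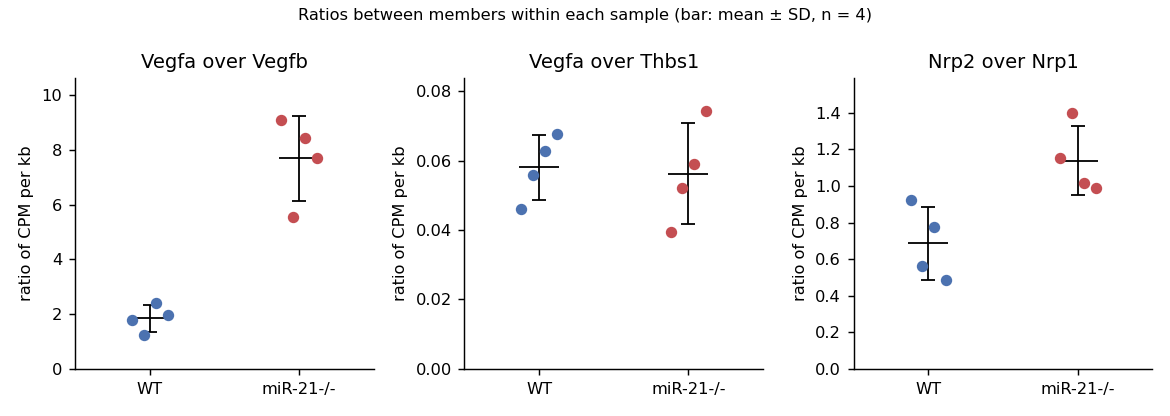
Ratios of CPM per kb within each sample, with mean and SD of 4 samples a group, for Vegfa over Vegfb, Vegfa over Thbs1 and Nrp2 over Nrp1. The groups are apart for the first ratio (1.85 against 7.70) and the last, and they overlap for Vegfa over Thbs1 (0.0581 against 0.0562).

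Partner genes of the same pathways were listed by function, 74 genes of the table in 9 lists. Of these 51 were tested, 3 passed upward and 6 passed downward, beside 2.89% and 4.23% of all tested genes. The split depended on the scaling and on single samples: rescaling by the median of ratios gave 4 upward and 3 downward, quantile normalization 3 and 3, and the downward count was 3 without WT sample 2 or 3 or miR-21-/- sample 1. The median log2 fold change of the 51 was -0.10, as over all tested genes.

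Of the other VEGF family genes, 3 were tested (Vegfd, Pgf and Kdr) and 0 passed in the limma fit, with 1 at an unadjusted p under 0.05, where 46.4% of all tested genes were. Kdr, the main VEGF-A receptor, averaged 10.9 ± 2.35 CPM in WT TAMs, and its miR-21-/- mean was 9.68 ± 3.12 CPM (log2 fold change -0.19, limma adjusted p = 0.511). Pgf, the placental growth factor and a ligand of Flt1, had the lowest fold change of the list (-0.40, limma adjusted p = 0.0679). Flt4, the receptor of VEGF-C, was under the filter at 0.212 ± 0.0760 and 0.286 ± 0.1001 CPM (SD, n = 4).

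In the PDGF family 3 of 4 genes were tested and 2, both receptors, passed downward in miR-21-/- TAMs, beside 4.23% of all tested genes. Pdgfra went from 15.7 ± 4.88 to 3.45 ± 1.04 CPM (SD, n = 4), a log2 fold change of -1.89 (limma adjusted p = 0.000282). Pdgfrb went from 4.93 ± 1.15 to 1.52 ± 0.207 CPM (SD, n = 4), a log2 fold change of -1.22 (limma adjusted p = 0.000242). Pdgfc, a further ligand, was at 8.89 and 4.26 CPM (-0.88, limma adjusted p = 0.0238) and did not pass. These receptors mark fibroblasts and pericytes. Of the 7 other markers of those cells 5 were tested and 2 passed downward (Col1a1 and Col3a1), beside 4.23% of all tested genes. The summed level of all 9 markers was 77.7 to 149 CPM in WT and 18.4 to 54.6 CPM in miR-21-/- TAMs, without overlap, and none of the 9 was at the table minimum. Without the receptors the sum was 52.9 to 123 and 14.8 to 49.2 CPM, also apart, but rescaling by the median of ratios closed that gap (50.04 in the lowest WT and 50.5 in the highest miR-21-/- sample). Within the groups, WT sample 4 had the highest sum and the lowest Pdgfa, Vegfb and Vegfc of its group, while miR-21-/- sample 2 had the highest sum and the highest Pdgfa, Vegfb and Vegfc of its group. The sort for CD45 is meant to leave out fibroblasts and pericytes. The part of these cells in the lower Pdgfa, Vegfb and Vegfc was not tested.

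In the EGF family 5 of 10 genes were tested and 0 passed in the limma fit, with 0 at an unadjusted p under 0.05. Areg, an EGF-type ligand, was highest (0.17) and Erbb2, a receptor, lowest (-0.35). Of the receptors of HB-EGF itself, Egfr was under the filter at 0.707 and 0.270 CPM, and Erbb4 was at the table minimum in all samples. Of the proteases that shed or activate these ligands, 7 of 8 were tested and 0 passed in the limma fit, with 3 at an unadjusted p under 0.05, beside 46.4% of all tested genes. Plau, which codes for urokinase, was highest (0.45, limma adjusted p = 0.123) and Mmp9, a gelatinase that frees matrix-bound VEGF, lowest (-0.87, limma adjusted p = 0.233). Mmp9 varied widely among the WT samples, from 166 to 1157 CPM, and its log2 fold change was -1.40 without WT sample 4 (limma adjusted p = 0.0222), -0.47 without WT sample 3 and -0.53 without WT sample 1.

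Of the thrombospondins and their receptors, 4 of 6 were tested and 1, Cd36, passed upward, beside 2.89% of all tested genes. Cd36, the receptor through which thrombospondin-1 acts on endothelium and a scavenger receptor of macrophages, went from 21.95 ± 12.05 to 117 ± 22.8 CPM (SD, n = 4). Its log2 fold change was 2.52 (SE 0.34, limma adjusted p = 0.000540), and the groups did not overlap. Cd47, the other receptor, was at 277 and 271 CPM (-0.03, limma adjusted p = 0.756). Thbs2, a related inhibitor made by fibroblasts, was lowest at 7.69 and 3.03 CPM (-1.16, limma adjusted p = 0.00902) and did not pass.

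Among the semaphorin partners of neuropilins, 6 of 12 were tested, 1 passed upward and 2 downward, beside 2.89% and 4.23% of all tested genes. Plxna1, a plexin that pairs with neuropilins, rose from 97.9 ± 28.6 to 201 ± 44.2 CPM (SD, n = 4), a log2 fold change of 1.05 (limma adjusted p = 0.00286). The related plexins Plxna3 and Plxna4 fell. Plxna3 went from 7.96 ± 0.622 to 3.68 ± 0.989 CPM (-0.96, limma adjusted p = 0.000761), and Plxna4 from 17.2 ± 2.74 to 8.96 ± 2.30 CPM (-0.89, limma adjusted p = 0.00315). Plxna3 passed in all 8 fits that left out 1 sample. The call of Plxna1 was lost in 5 of them (WT 1 or 2, miR-21-/- 1, 2 or 4, limma adjusted p up to 0.0103) and that of Plxna4 in 6 (each WT sample, miR-21-/- 1 or 3, limma adjusted p up to 0.0104). In the list of angiopoietins and FGFs, 3 of 10 were tested and 1 passed downward, beside 4.23% of all tested genes. Fgfr1, an FGF receptor, was the gene that passed, and it fell from 23.8 ± 4.81 to 11.1 ± 3.40 CPM (-1.07, limma adjusted p = 0.00444). That call was lost in 5 of the 8 fits that left out 1 sample (WT 2, 3 or 4, miR-21-/- 1 or 2, limma adjusted p up to 0.0156). Angpt2, which loosens vessel walls, was highest at 3.78 and 6.43 CPM (0.66, limma adjusted p = 0.0522) and did not pass.

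Hypoxia-inducible factors are known activators of Vegfa, and their genes were read for that reason. Of 8 genes for the factors and their regulators, all were tested and 1 passed upward, beside 2.89% of all tested genes. That gene was Hif1a, the alpha subunit of HIF-1. It rose from 228 ± 36.8 to 467 ± 63.5 CPM (SD, n = 4), a log2 fold change of 1.03 (SE 0.12, limma adjusted p = 0.000248). Epas1, the alpha subunit of HIF-2, was lowest at 3.55 and 1.81 CPM (-0.68, limma adjusted p = 0.0130) and did not pass. Of 12 genes that HIF is known to induce, all tested, 7 were higher and 5 lower. The 1 that passed fell, beside 4.23% of all tested genes: Ankrd37 went from 10.4 ± 0.818 to 6.57 ± 0.954 CPM (-0.60, limma adjusted p = 0.00205). Its call was lost in 5 of the 8 fits that left out 1 sample (WT 2, 3 or 4, miR-21-/- 1 or 2, limma adjusted p up to 0.00768). Slc2a1, the glucose transporter GLUT1, was highest at 121 ± 16.2 and 171 ± 6.70 CPM (0.50, limma adjusted p = 0.00185), under the fold limit. Pgk1, a glycolysis gene, was at 196 and 267 CPM without overlap (0.44, limma adjusted p = 0.00529) and did not pass. At a limma adjusted p at or under 0.05, 3 of the 12 passed, 2 of them higher (Slc2a1 and Pgk1), beside 36.0% of all tested genes. The median of the 12 was 0.04 on the log2 scale, beside -0.10 over all tested genes.

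**Figure D5:**
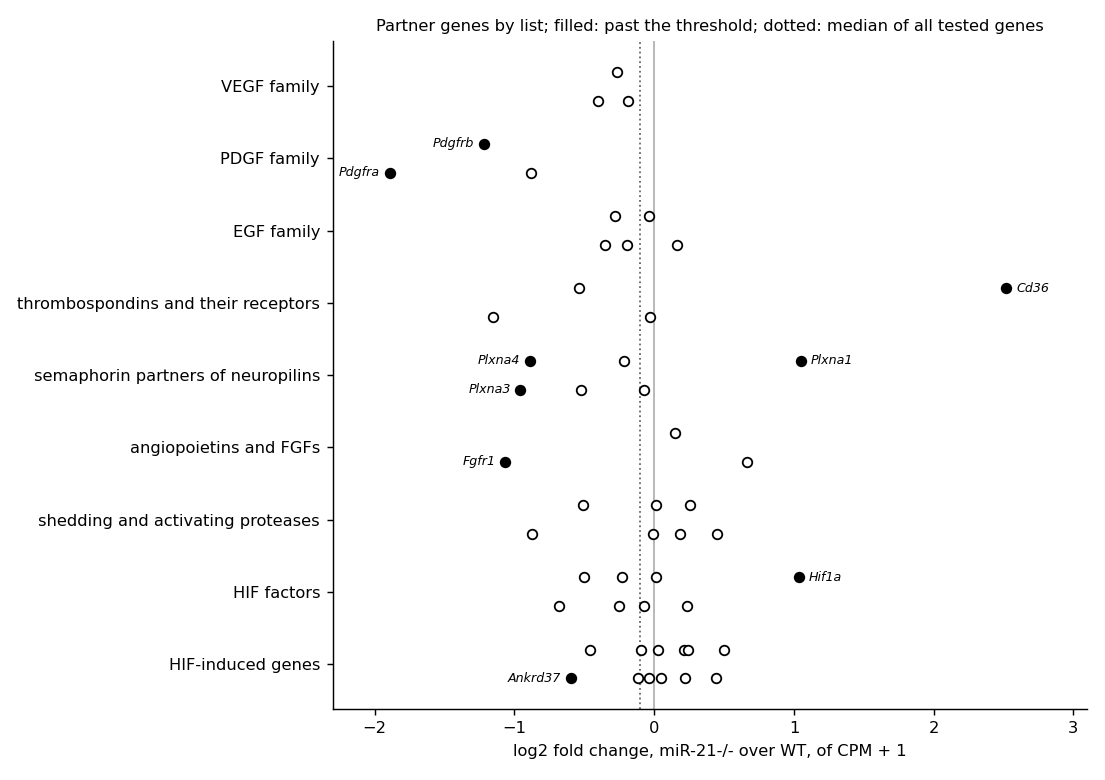
Log2 fold change of CPM + 1, miR-21-/- over WT TAMs, of the 51 tested partner genes in 9 lists, 1 point per gene. Filled points passed the threshold, 3 upward (Cd36, Plxna1 and Hif1a) and 6 downward, and the dotted line is the median over all tested genes.

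Markers of other cells were read beside the genes as well. Of 11 endothelial markers, 6 were under 1 CPM in all samples and 0 of 4 tested passed in the limma fit (0 at an unadjusted p under 0.05), and the sum was 155 to 307 CPM in WT and 204 to 293 CPM in miR-21-/- TAMs. Pecam1, which myeloid cells also express, carried most of that sum, and Cdh5 was at 5.88 and 4.96 CPM. Of the other endothelial markers 7 were under the filter and low in reads. All 7 had lower means in miR-21-/- TAMs, from 0.128 times the WT mean for Cldn5 to 0.569 times for Robo4. Cldn5 was at 0.151 and 0.0193 CPM, which is 0 to 5 reads a sample. Egfl7 was at 0.890 ± 0.161 and 0.380 ± 0.144 CPM (SD, n = 4), without overlap. The sum of 5 keratin and epithelial markers of tumor cells was 16.9 to 23.5 CPM in WT and 12.5 to 16.2 CPM in miR-21-/- TAMs, and 0 of 3 tested passed in the limma fit (2 at an unadjusted p under 0.05, beside 46.4% of all tested genes). For 7 neutrophil markers it was 801 to 1198 and 596 to 773 CPM. Of 6 tested, 1 (Mmp8) passed downward, beside 4.23% of all tested genes. In the limma fit 5 of the 6 had an unadjusted p under 0.05, beside 46.4% of all tested genes. Ly6g went the other way, at 1.91 and 2.59 CPM (log2 fold change 0.31, limma adjusted p = 0.270), with overlap. The neutrophil and keratin sums were thus apart on the deposited scale, both lower in miR-21-/- TAMs, like Vegfb, Vegfc and Pdgfa. After rescaling by the median of ratios both overlapped, with the lowest WT and highest miR-21-/- samples at 752 and 802 for neutrophils and 15.9 and 17.2 for keratins, as Vegfc and Pdgfa did while Vegfb stayed apart. Their part in those values was not tested. The sort, for CD45 against tumor cells and for F4/80 against neutrophils, is meant to leave both out. The sums for dendritic cells (11.2 to 19.9 and 15.2 to 38.4 CPM) and for T and NK cells (10.6 to 12.5 and 7.64 to 32.4 CPM) overlapped. In the limma fit 0 genes of either list passed, with 4 of 6 dendritic cell and 1 of 5 T and NK cell genes at an unadjusted p under 0.05, again beside 46.4% of all tested genes. Clec9a, a marker of cross-presenting dendritic cells, was at 2.54 and 8.18 CPM, and Cd8a at 1.92 and 6.71 CPM, both without overlap and higher in miR-21-/- TAMs (limma adjusted p = 0.00532 and 0.00804). Of the dendritic cell genes at that unadjusted p, Clec9a alone was higher. Flt3 (1.69 and 0.924 CPM), Zbtb46 (1.51 and 0.875 CPM) and Cd209a were lower. Xcr1 was higher at 3.54 and 9.61 CPM, with overlap. Beside Cd8a, the log2 fold changes of Cd3d and Trac were 0.002 and 0.07, and those of Cd3e and Cd3g 0.26 and 0.29. Ncr1 (0.340 and 0.123 CPM) and Klrb1c (0.491 and 0.391 CPM) had lower means. Cd209a was at 2.62 and 0.396 CPM, passed the filter on low values through its WT samples, and overlapped between the groups. The sum of 8 macrophage and gate markers was 7393 to 8390 CPM in WT and 6584 to 7947 CPM in miR-21-/- TAMs. Of these 8 markers, all tested, 1 passed upward, beside 2.89% of all tested genes: Fcgr1, an IgG receptor (273 ± 35.4 and 458 ± 45.8 CPM, SD, n = 4). Csf1r, the CSF-1 receptor, was at 1310.5 ± 160.02 and 939 ± 79.1 CPM (SD, n = 4), a log2 fold change of -0.48 (limma adjusted p = 0.00538) that missed the threshold. Its groups were apart on the deposited scale and overlapped after rescaling by the median of ratios, at 1080.2 in the lowest WT and 1104 in the highest miR-21-/- sample.

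The genes most like Vegfa, Vegfb and Thbs1 were found from the root mean square difference of log2 profiles standardised over the 8 samples, where 0 is an identical pattern. For Vegfa these were Tpm3 (0.164), Cnih4 (0.188) and Tinf2 (0.224), and for Thbs1 they were Thap6 (0.118), Csrnp1 (0.150) and Slc39a14 (0.177). For Vegfb they were Lancl1 (0.0871), Dlst (0.0943) and Hagh (0.111). Likeness of pattern does not mean likeness of size: Tpm3 went from 398 ± 11.5 to 436 ± 4.89 CPM (SD, n = 4), far less in fold than Vegfa. Within the set, Thbs1 was the nearest to Vegfa (0.445), followed by Nrp2 (0.625), and Pdgfa was the nearest to Vegfb (0.342).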

How the data were processed

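TAMs of 4 WT and 4 miR-21-/- samples were profiled by RNA-Seq with the Kapa mRNA Hyper prep kit. Per the submitters' processing notes, STAR, mm10 and Partek 7.0 were used, and the counting rule and strand setting are not given in the sources used here. The authors deposited 1 CPM value per gene and sample, raised by 0.0001, for 53247 genes. Between 72.7% and 73.7% of low values (up to 20 reads, within 0.02) were whole reads, so no count test was run. Depth was 20.2 to 33.4 times 1e+06 reads, which limits Vegfc and Flt1 most.

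From these values log2(CPM + 1) was fitted with limma 3.58.1 in R 4.3.3 (eBayes with an intensity trend), genotype as the only term. Genes whose mean reached 1 per 1e+06 of the column total entered, 13850 in number, and Benjamini-Hochberg adjustment ran over all of them. The threshold, a change beyond 1.5-fold with an adjusted p of 0.005 or less, is the one the study gives for these RNA-Seq data. Vegfc, under the filter, was compared by an exact permutation test over samples.

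Exon lengths and 3′ UTRs came from GENCODE vM21, in which 97.0% of genes have the start given in the table. Motifs were searched on both strands. The genes named are all 10 members, the genes past the threshold and the highest and lowest of each partner list, and the 3 genes most like Vegfa and each member past the threshold. Other genes named were chosen after their values were seen, as were single samples named beside a result. Members, lists and limits were chosen with earlier results of these data known. Alternatives were other pseudocounts, filters and scalings, eBayes without the trend, sample weights, the replicate number as a block, other limits, and leaving out each sample.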

Additional observations from a re-analysis of the deposited data

Results flagged for a closer look

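In each group of 4 samples, the gap between an extreme sample and the nearest other was set against the range of the group, for the members, the named partner genes, the ratios and the marker sums, in 86 groups in all. About 1 in 20 groups is picked out in this way by chance, and 4 were. Pdgfb was at 54.1 CPM in miR-21-/- sample 4, while the others of that group were at 32.4 to 33.6 CPM. Hif1a, the alpha subunit of HIF-1, was at 561 CPM in miR-21-/- sample 1, with the others at 425 to 445 CPM. Pgf, the placental growth factor, was at 0.635 CPM in miR-21-/- sample 1, below the others at 0.922 to 0.959 CPM. The summed fibroblast and pericyte markers were at 54.6 CPM in miR-21-/- sample 2, with the others at 18.4 to 24.5 CPM.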

How the results depend on the processing

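The direction of each member was the same under all alternatives run. Members past the threshold upward were 2, but 0 with no filter, 1 with quantile normalization, 1 with eBayes without the trend, 3 with an adjusted p at or under 0.05 and no fold limit (Nrp2 in addition), and 1 to 2 when 1 sample was left out. Members past it downward were 1, but 0 with a pseudocount of 10, 2 with sample weights, 2 with an adjusted p at or under 0.05 and no fold limit, and 1 to 2 when 1 sample was left out. Vegfa passed in all 8 fits that left out 1 sample (0.89 to 1.19) and was lost with no filter (limma adjusted p = 0.00802). Vegfb passed in all 8 (-0.97 to -0.81) and was lost with a pseudocount of 10 (-0.42, under the fold limit by the construction of that scale). Thbs1 was lost with no filter (limma adjusted p = 0.0206), with quantile normalization (0.92, 0.0104) and without the trend (0.00571). Pdgfa passed with sample weights (-0.85, limma adjusted p = 0.00337). Nrp2 had a limma adjusted p from 0.00537 to 0.0461 over the other pseudocounts, filters, scalings and fits, and passed only under that wider limit. The log2 difference of Vegfc was -0.47 to -0.29 when 1 sample was left out, with p = 0.0571 by the exact permutation test, the smallest 3 against 4 samples allow, and -0.82 or -0.07 with a pseudocount of 0.1 or 10. Rescaled by the median of ratios, chosen after seeing the data, it was -0.35 with p = 0.0571 by the exact permutation test. Of the 9 partner genes past the threshold, 2 (Hif1a and Pdgfra) passed under all alternatives. Cd36 was lost only with no filter, Pdgfrb with a pseudocount of 10, and Plxna3 with either. Pdgfrb was too low to be tested under the stricter filter on low values, and it passed under the remaining alternatives. Plxna4, Fgfr1 and Ankrd37 were lost with the median of ratios (-0.79, -0.96 and -0.50) and with quantile normalization (-0.75, -0.94 and -0.45), and all of them also with no filter. Plxna4 and Fgfr1 were lost without the trend as well, Plxna4 and Ankrd37 with a pseudocount of 10, and Ankrd37 with sample weights (-0.55). Plxna1 was lost with no filter or without the trend. Slc2a1 passed with the median of ratios (0.61), Epas1 with sample weights or without WT sample 4, and Pdgfc without WT sample 4. At an adjusted p at or under 0.05 without a fold limit, 5 of the 9 tested members became 7 with the replicate block (Nrp1 and Pdgfb in addition) and 6 with the median of ratios, with quantile normalization, without WT sample 3 or without miR-21-/- sample 4. Over all genes the 986 calls became 517 with no filter and 452 with a pseudocount of 10. Where no cause is given, the cause was not tested.

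The sample descriptions number the replicates of each group from 1 to 4, while the titles of the miR-21-/- samples do not follow these numbers. Samples with the same number in the descriptions did not deviate together (correlations of 0.08, -0.11, -0.14 and 0.22), so the numbers were not taken to pair animals. With this number as a replicate block 2 members passed downward, since Pdgfa passed (-0.84, limma adjusted p = 0.00457), 2 passed upward, and 922 genes passed in all. The calls of Plxna1 (limma adjusted p = 0.00610) and Fgfr1 (0.00942) were lost under it. Depth limits Vegfc, at 11 to 32 reads a sample, and Flt1, at 19 to 78.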
